A study of Homo sapiens with 6 samples.

Results

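This account covers 9 genes, DPPA2, DPPA3, DPPA4, DPPA5, NLRP2, NLRP7, TBX3, TFCP2L1 and ESRRB, taken by their names from the 23346 gene rows of a table of RPKM values. RPKM is a read count scaled by gene length and library depth, so that levels of different genes can be set side by side. The cells were KhES-1, a long-used line of human embryonic stem cells, and the table was used for 3 libraries of cells kept in AKIT medium and 2 libraries (replicates 1 and 2) of cells kept in Essential 8 (E8), the control medium. E8 replicate 3 was not analysed here. In both media the dishes carried a fragment of laminin (0.5 µg per square cm). FGF2 and TGF-beta are the growth factors of E8, a defined medium, and AKIT is known as a medium that uses small-molecule inhibitors of GSK3, of DYRK kinases and of calcineurin in place of these factors. These libraries come from this line alone, and the labels do not say that the replicates were separate cultures, so that the p-values measure the spread between these libraries, which may be technical.

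Human pluripotent stem cells can be held in a primed state, which resembles the epiblast after implantation and is the state of ordinary cultures, or in a naive state, which resembles the epiblast before implantation. The 9 genes are among those often read as marks of the naive state, of the early embryo or of germ cells. DPPA2 and DPPA4 are nuclear proteins with a SAP domain that bind chromatin as a pair and, in mouse, keep promoters of developmental genes open to later activation. DPPA3, also called STELLA, acts on DNA methylation in the mouse egg and zygote, and DPPA5 is a protein of the KH domain family. NLRP2 and NLRP7 are maternal-effect genes of the NOD-like receptor family, and variants of NLRP7 are a known cause of recurrent molar pregnancy. TBX3, TFCP2L1 and ESRRB are transcription factors of the network that maintains mouse embryonic stem cells. In mouse, TCF7L1 represses Esrrb and Tfcp2l1, and inhibition of GSK3 relieves that repression.

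The bases just before the start of 5 of the genes are shown because CpG dinucleotides, the sites of DNA methylation, differ widely in number among them. Each run gives the 250 bases before the annotated start, 5′ to 3′ on the strand of the gene, with CpG dinucleotides in capitals. The sequences are those of RefSeq (GRCh38.p14), a later build than the hg19 of the RPKM values. The windows are chr12:7711183-7711432 on the plus strand for DPPA3, chr19:54947531-54947780 on the minus strand for NLRP7, chr19:54966124-54966373 on the plus strand for NLRP2, chr3:109337547-109337796 on the minus strand for DPPA4 and chr2:121285203-121285452 on the minus strand for TFCP2L1.
DPPA3: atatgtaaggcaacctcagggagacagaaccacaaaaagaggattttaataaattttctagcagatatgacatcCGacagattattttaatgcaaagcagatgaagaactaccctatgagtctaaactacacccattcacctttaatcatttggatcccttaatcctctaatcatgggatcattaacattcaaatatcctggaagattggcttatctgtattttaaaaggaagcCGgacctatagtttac
NLRP7: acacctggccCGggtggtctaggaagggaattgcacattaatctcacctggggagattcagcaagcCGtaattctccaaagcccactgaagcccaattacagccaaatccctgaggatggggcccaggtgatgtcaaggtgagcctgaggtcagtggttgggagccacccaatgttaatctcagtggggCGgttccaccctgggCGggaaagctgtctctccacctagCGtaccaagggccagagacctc
NLRP2: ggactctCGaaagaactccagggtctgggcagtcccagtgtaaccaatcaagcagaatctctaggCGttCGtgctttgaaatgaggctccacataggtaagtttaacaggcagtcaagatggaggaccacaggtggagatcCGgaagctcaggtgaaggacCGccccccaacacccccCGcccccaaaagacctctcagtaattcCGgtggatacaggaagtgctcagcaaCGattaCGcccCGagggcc
DPPA4: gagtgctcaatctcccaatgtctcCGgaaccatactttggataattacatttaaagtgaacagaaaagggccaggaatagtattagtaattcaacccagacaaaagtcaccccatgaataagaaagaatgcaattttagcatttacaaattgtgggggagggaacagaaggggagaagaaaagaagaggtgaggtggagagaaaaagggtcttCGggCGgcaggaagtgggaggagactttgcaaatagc
TFCP2L1: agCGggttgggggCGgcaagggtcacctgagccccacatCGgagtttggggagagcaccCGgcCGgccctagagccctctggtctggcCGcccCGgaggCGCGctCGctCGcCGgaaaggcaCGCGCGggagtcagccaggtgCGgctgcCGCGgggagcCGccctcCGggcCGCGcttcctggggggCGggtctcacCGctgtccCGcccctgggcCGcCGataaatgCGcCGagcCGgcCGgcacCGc
DPPA3 has 2 CpG dinucleotides in its window, DPPA4 has 3, NLRP7 has 5, NLRP2 has 10 and TFCP2L1 has 32, against a median of 11 over the 35116 promoter windows of the table. A CpG count at least as high as that of DPPA3 was found in 85.3% of the windows, and one at least as high as that of TFCP2L1 in 9.52%. DPPA2 has 7 and DPPA5 has 19, and the 3 entries of ESRRB have 3, 4 and 5. TBX3 had no entry. For NLRP2 the table has a second entry that differs from the run above at 1 base of the window.

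Short motifs were searched on both strands of these windows. The TCF/LEF core TCAAAG occurs in the windows of NLRP2 and DPPA2 and in 11.2% of all windows. The ETS core CCGGAA occurs in those of DPPA2, DPPA4, NLRP2 and TFCP2L1 (14.5% of all windows), and the half-site of nuclear receptors AGGTCA in those of DPPA2, DPPA5 and NLRP7 (12.1%). The KLF core GGGGCGG occurs in those of DPPA5, NLRP2, NLRP7 and TFCP2L1 (29.3%). The SOX core CATTGT (9.29%) and the TATA box TATAAA (10.7%) each occur in 1 window of ESRRB, and the octamer ATGCAAAT (1.63%), a longer motif searched in the same way, in none of the windows of these genes. DPPA3 has none of these letters in its window.

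The values rested on 19398694 to 23263095 reads per AKIT library and 16242864 to 17657634 per E8 library, recovered from the RPKM values as described in the processing section. All 13 markers of embryonic stem cells on the list used here were above 1 RPKM in both media, with summed levels of 4366 to 4478 RPKM in AKIT and 5020.0 to 5081 RPKM in E8. POU5F1 stood at 349 RPKM in AKIT and 328 RPKM in E8, NANOG at 10.5 RPKM in AKIT and 8.15 RPKM in E8, and SOX2 fell to 254 RPKM in AKIT, against 435 RPKM in E8. Each log2 difference below was taken as AKIT less E8 after adding 1 RPKM to every value, with the standard error from limma after the ± sign; on this scale the fold of a low gene comes out too small. "Rose" and "fell" are used where the adjusted p is under 0.05 in limma over all 14776 tested genes. AKIT replicate 2 stood apart from the other AKIT libraries on the second principal component (17.2% of the variance), at -27.3 against 12.7 and 9.61 for AKIT replicates 1 and 3.

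DPPA3, TBX3, NLRP7 and NLRP2 rose in AKIT, that is 4 of the 8 genes tested, and 0 fell. Of all tested genes 8.22% rose and 11.7% fell, or 20.0% in either direction. In 6 of the 8 tested genes every AKIT library was above both E8 libraries, as in 25.8% of all tested genes, and in DPPA4 every AKIT library was below both, as in 28.6% (54.4% in either direction). The median log2 difference was 0.67 for the 8 tested genes and -0.01 for all tested genes. These figures describe genes that were picked by name with earlier results known. DPPA3 and TBX3 had E8 means below 0.5 RPKM and reached the filter (an average over the 5 libraries of 0.5 RPKM or more) through AKIT, so that among genes of such low E8 level only those that were higher in AKIT were tested. Without the filter the same 4 genes were called. The libraries were made from whole cultures, in which more cells with a transcript and more transcript per cell cannot be told apart.

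**Figure D1:**
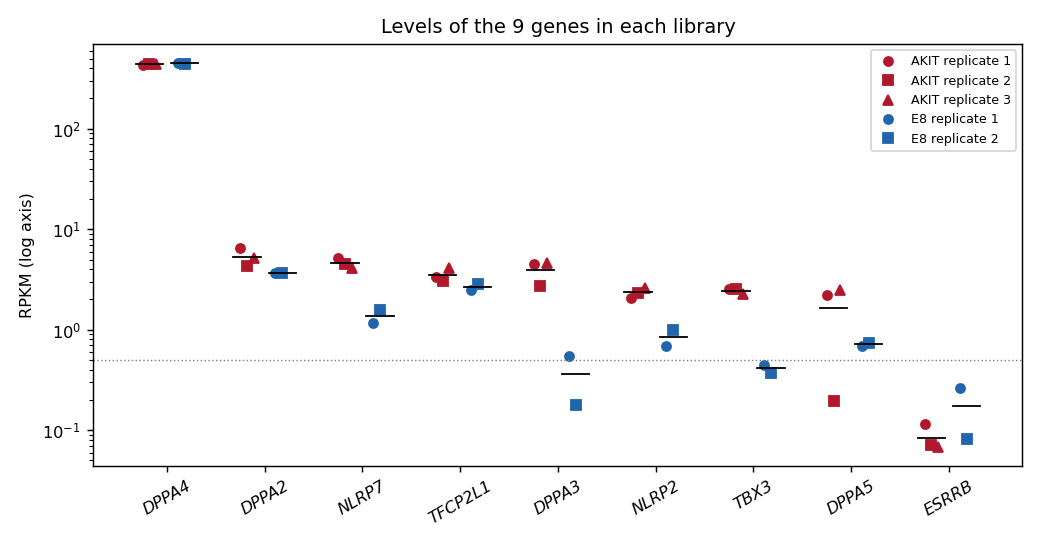
RPKM (vertical log axis) of the 9 genes in each library, AKIT in red left of E8 in blue, with a mark shape per replicate, black lines for means and a dotted line at 0.5 RPKM. DPPA4 lay above 430.0 RPKM in every library and the other genes below 7 RPKM, and DPPA5 in AKIT replicate 2 lay far below its other libraries.

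**Figure D2:**
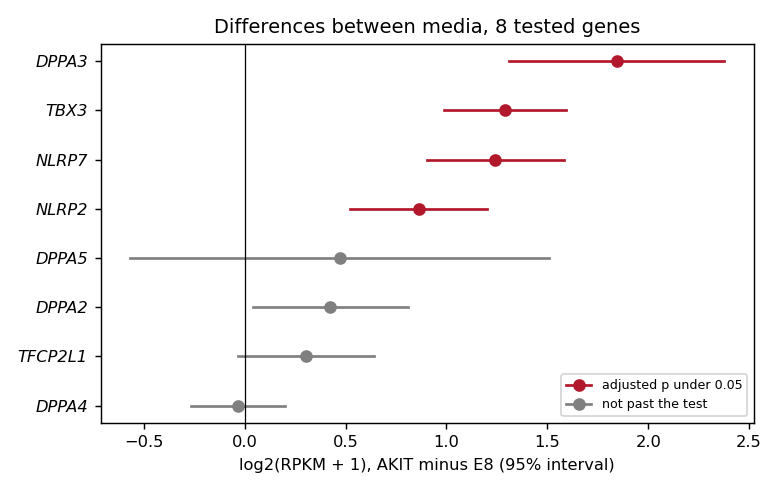
Log2 difference, AKIT minus E8, of log2(RPKM + 1) for the 8 tested genes, with 95% intervals from limma. The intervals of DPPA3, TBX3, NLRP7 and NLRP2 lay above 0.5, and that of DPPA5 ran from -0.57 to 1.51.

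DPPA3, the egg and germ-cell factor, had the largest difference of the 9 genes on this scale. It stood at 4.52, 2.69 and 4.57 RPKM in AKIT replicates 1, 2 and 3, against 0.546 and 0.178 RPKM in E8 replicates 1 and 2. AKIT replicate 2 was the lowest of its group and still 4.93 times as high as the higher E8 library. The values rest on 109, 65 and 92 reads in AKIT and on 10 and 3 reads in E8. Means were 3.93 ± 1.07 RPKM in AKIT (SD, n = 3) and 0.362 ± 0.260 RPKM in E8 (SD, n = 2), a log2 difference of 1.84 ± 0.22 (limma adjusted p = 0.00334). Relative to the recovered depths, the pooled AKIT libraries held 10.5 times as many DPPA3 reads as the pooled E8 libraries. The exact 95% interval of 6.05 to 20.03 covers counting error only. DPPA3 is the member most exposed to near-identical copies: 45.9% of the 50-base stretches of its GENCODE transcript also occur in transcripts of other genes, most of them in the pseudogene DPPA3P2. How the authors treated reads that match several places is not given in the sources used here, so its level is uncertain.

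DPPA5, the KH domain gene, differed more among the AKIT libraries than between the media. AKIT replicates 1, 2 and 3 had 2.22, 0.195 and 2.50 RPKM, against 0.686 and 0.746 RPKM in E8. AKIT replicates 1 and 3 were above both E8 libraries and AKIT replicate 2 was below both. The low value rests on 3 reads, with an exact 95% counting interval of 0.0403 to 0.571 RPKM, and the other AKIT libraries on 34 and 32 reads. With all libraries DPPA5 did not pass (log2 difference 0.47 ± 0.44, limma adjusted p = 0.480). Without AKIT replicate 2 the log2 difference was 0.97 ± 0.14 (limma adjusted p = 0.00434), and it was 0.25 and 0.19 without AKIT replicates 1 and 3. The coefficient of variation of DPPA5 over the AKIT libraries was 76.8%, a value reached by 1.76% of tested genes, against a median of 12.8%.

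DPPA2 and DPPA4, which act as a pair and are neighbours on chromosome 3, had very different levels. DPPA4 was the highest of the 9 genes, at rank 49 of all gene rows by mean level, and hardly differed between media. It had 430.0, 437 and 444 RPKM in AKIT replicates 1, 2 and 3, against 449 and 445 RPKM in E8. The AKIT libraries lay just below the E8 libraries, and the 95% interval of the log2 difference was -0.27 to 0.20 around -0.03 (limma adjusted p = 0.844). DPPA2 had 6.53, 4.32 and 5.14 RPKM in AKIT, against 3.69 and 3.65 RPKM in E8. Each AKIT library was above both E8 libraries, the lowest, AKIT replicate 2, by 1.17 times. The log2 difference of 0.43 ± 0.16 did not pass (limma adjusted p = 0.110, 95% interval 0.04 to 0.81). Without AKIT replicate 2 DPPA2 passed at 0.54 ± 0.13 (limma adjusted p = 0.0257), and with array weights at 0.48 (limma adjusted p = 0.0236). The level of DPPA4 was 65.9, 101 and 86.3 times that of DPPA2 in AKIT replicates 1, 2 and 3, and 122 times in both E8 libraries.

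Both NLRP genes rose. They lie side by side on chromosome 19 and are read in opposite directions, away from each other. NLRP7 had 5.14, 4.51 and 4.14 RPKM in AKIT replicates 1, 2 and 3, against 1.16 and 1.58 RPKM in E8, and the lowest AKIT library was 2.62 times as high as the higher E8 library. Its means were 4.60 ± 0.505 RPKM in AKIT (SD, n = 3) and 1.37 ± 0.300 RPKM in E8 (SD, n = 2), a log2 difference of 1.24 ± 0.14 (limma adjusted p = 0.00298). NLRP2 had 2.09, 2.34 and 2.61 RPKM in AKIT, against 0.695 and 0.990 RPKM in E8, again with no overlap. The NLRP2 means were 2.35 ± 0.264 RPKM in AKIT (SD, n = 3) and 0.842 ± 0.209 RPKM in E8 (SD, n = 2), a log2 difference of 0.86 ± 0.14 (limma adjusted p = 0.00945). With either E8 library left out the call of NLRP2 ended, at a limma adjusted p of 0.109 without the first and of 0.0610 without the second, while that of NLRP7 held in these fits. NLRP7 was the higher of the pair in every library, by 2.46, 1.93 and 1.59 times in AKIT replicates 1, 2 and 3 and by 1.67 and 1.60 times in E8. The paralogs share sequence: 9.95% of the 50-base stretches of NLRP7 occur in NLRP2 transcripts, and 10.3% of those of NLRP2 in NLRP7, so part of either level may come from the other gene.

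Of 13 other rows of the NLRP family, 2 were high enough to test. NLRP12, known in blood cells as a brake on NF-kB signalling, rose as well, with 7.11, 6.05 and 5.37 RPKM in AKIT replicates 1, 2 and 3, against 2.46 and 2.13 RPKM in E8 (log2 difference 1.12 ± 0.14, limma adjusted p = 0.00376). This call was lost without E8 replicate 2. NLRX1, a mitochondrial member without a pyrin domain, fell to 5.56, 6.25 and 5.56 RPKM in AKIT, against 8.92 and 9.65 RPKM in E8 (-0.60 ± 0.11, limma adjusted p = 0.0132). Under the replicate block and without either E8 library NLRX1 did not pass. The remaining 11 rows did not exceed 0.511 RPKM in any library, and NLRP5, NLRP8 and NLRP13 were listed at 0 in all.

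**Figure D3:**
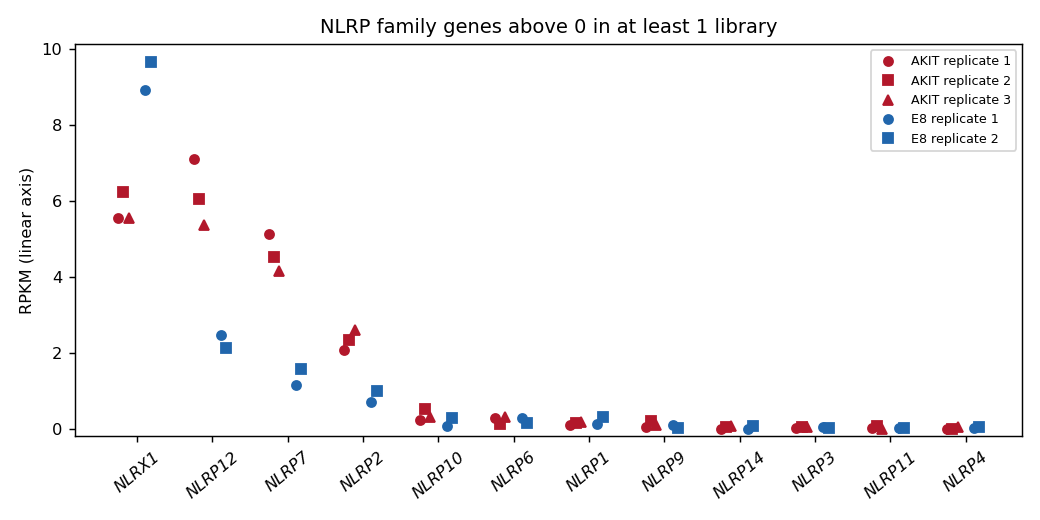
RPKM (vertical linear axis) of NLRP family genes with a value above 0 in at least 1 library, AKIT in red left of E8 in blue, with a mark shape per replicate. NLRP12, NLRP7 and NLRP2 were higher in every AKIT library than in E8, NLRX1 was lower, and the other genes lay near 0.

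NLRP proteins are known in immune cells as sensors of inflammasomes, complexes that activate caspase-1. Of 12 genes of that machinery, 4 were tested, 0 rose and 2 fell. PYCARD, the adaptor protein, fell to 17.8, 11.7 and 15.4 RPKM in AKIT, against 35.6 and 29.9 RPKM in E8 (-1.09 ± 0.18, limma adjusted p = 0.00838). GSDMD, the pore-forming protein cut by caspases, fell by 0.53 on the log2 scale (limma adjusted p = 0.0252). Neither call held without either E8 library, and that of GSDMD was also lost under the replicate block and without AKIT replicate 1. CASP1, the caspase itself, was listed at 0 in every library. In the egg, NLRP proteins belong to the subcortical maternal complex. Of 7 other rows of that complex only ZBED3 was high enough to test, at 2.76 to 3.94 RPKM in AKIT and 3.12 to 4.31 RPKM in E8, and it did not pass (limma adjusted p = 0.852). NLRP5 and PADI6, which are core parts of the complex, were listed at 0.

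TBX3, the T-box factor, had the smallest spread among the genes that rose. It had 2.54, 2.56 and 2.26 RPKM in AKIT replicates 1, 2 and 3, against 0.450 and 0.373 RPKM in E8. The lowest AKIT library was 5.03 times as high as the higher E8 library. The means of 2.45 ± 0.165 RPKM in AKIT (SD, n = 3) and 0.412 ± 0.0542 RPKM in E8 (SD, n = 2) gave a log2 difference of 1.29 ± 0.13 (limma adjusted p = 0.00181). In reads these were 282, 285 and 210 in AKIT and 38 and 29 in E8, a pooled ratio of 5.96 with an exact 95% counting interval of 4.64 to 7.77. No 50-base stretch of its transcript occurs in another gene. Among 16 rows of other T-box genes 4 were tested, 2 rose and 0 fell. MGA, a large repressor with a T-box and a MAX-binding part, had 15.6 to 16.0 RPKM in AKIT and 9.61 to 10.3 RPKM in E8 (0.62 ± 0.09), and TBX10 had 1.92 to 2.83 RPKM in AKIT and 1.06 to 1.27 RPKM in E8 (0.65 ± 0.16). Both calls ended without either E8 library, and that of TBX10 also without AKIT replicate 3, without the filter, under the replicate block and with voom. TBX2, the closest relative of TBX3, did not exceed 0.0763 RPKM. T (brachyury) did not reach the filter. It had 1.11, 0.837 and 0.348 RPKM in AKIT, against 0.0450 and 0.0489 RPKM in E8, with no overlap. TBX15, also below the filter, lay the other way, at 0.0246 to 0.0590 RPKM in AKIT and 0.0648 to 0.106 RPKM in E8. T and TBX15 were named after their values were seen.

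TFCP2L1, the CP2 family factor, was expressed in both media and did not pass. AKIT replicates 1, 2 and 3 had 3.38, 3.07 and 4.11 RPKM, against 2.48 and 2.82 RPKM in E8. The AKIT libraries were all above the E8 libraries, the nearest pair by 1.09 times. The log2 difference was 0.30 ± 0.14 (limma adjusted p = 0.176), with a 95% interval of -0.03 to 0.64, and it passed under none of the 14 alternatives. None of the other 5 CP2 and Grainyhead genes passed, the smallest p being those of GRHL2 (-0.28 ± 0.11, limma adjusted p = 0.109) and GRHL3 (-0.48 ± 0.19, limma adjusted p = 0.118). TCF7L1, the repressor named above, fell to 44.1, 60.4 and 48.5 RPKM in AKIT, against 93.0 and 90.6 RPKM in E8 (-0.85 ± 0.14, limma adjusted p = 0.00916), and did not pass without either E8 library.

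ESRRB, the orphan nuclear receptor, was close to absent in both media. It had 0.114, 0.0713 and 0.0684 RPKM in AKIT replicates 1, 2 and 3, against 0.263 and 0.0817 RPKM in E8. These levels stand for 8, 5 and 4 reads in AKIT and 14 and 4 reads in E8, and the groups overlap. The gene did not reach the filter, and without the filter it did not pass (log2 difference -0.11 ± 0.08, limma adjusted p = 0.401). Of 10 related receptors and coactivators 8 were tested, 0 rose, and NR6A1, the germ cell nuclear factor, fell to 15.01, 16.8 and 15.8 RPKM in AKIT, against 23.7 and 26.8 RPKM in E8 (-0.64 ± 0.10, limma adjusted p = 0.00874), and did not pass without either E8 library. ESRRA, the widely expressed relative of ESRRB, had 24.8 to 28.4 RPKM in AKIT and 20.2 to 21.0 RPKM in E8 and did not pass (limma adjusted p = 0.0577). It passed with median-of-ratios scaling, with array weights and without AKIT replicate 2, and was named here after its values were seen.

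The order of the levels changed between the media. In AKIT the order was DPPA4, DPPA2, NLRP7, DPPA3, TFCP2L1, TBX3, NLRP2, DPPA5 and ESRRB. Neighbours in this order overlapped in range except at 3 steps, those below DPPA4, below TFCP2L1 and below DPPA5. In E8 it was DPPA4, DPPA2, TFCP2L1, NLRP7, NLRP2, DPPA5, TBX3, DPPA3 and ESRRB, with overlap between NLRP2 and DPPA5, between TBX3 and DPPA3, and between DPPA3 and ESRRB. These orders are of means: in AKIT replicate 2 DPPA3 was below TFCP2L1. The 8 genes other than DPPA4 summed to 26.5, 19.8 and 25.4 RPKM in AKIT replicates 1, 2 and 3 and to 9.96 and 10.4 RPKM in E8.

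**Figure D4:**
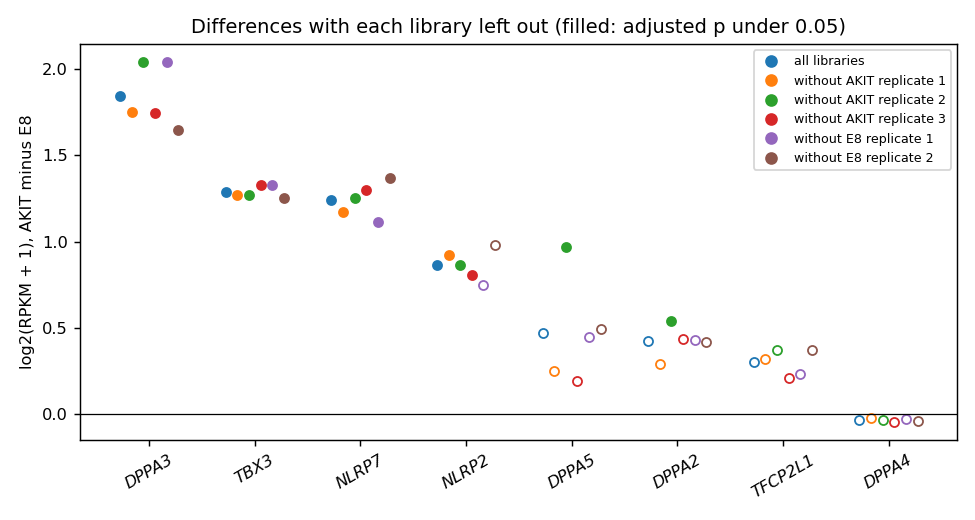
Log2 difference, AKIT minus E8, of log2(RPKM + 1) for the 8 tested genes with all libraries and with each library left out, filled where the limma adjusted p is under 0.05. DPPA3, TBX3 and NLRP7 were filled in every fit, NLRP2 was open without E8 replicate 1 or 2, and DPPA5 and DPPA2 were filled without AKIT replicate 2.

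With libraries left out, the number of the 8 tested genes that rose was 6 without AKIT replicate 2, where 14.5% of all tested genes rose. It was 3 without E8 replicate 1 or 2, where 0.969% and 0.963% of tested genes rose, and 4 without AKIT replicate 1 or 3 (5.35% and 4.62%). With the replicate number as a block 4 of the 8 tested genes and 3.33% of all tested genes rose. In that fit AKIT replicate 3 had no E8 partner and added nothing to the differences. They equal those without AKIT replicate 3, such as 1.74 for DPPA3 and 1.33 for TBX3 in both fits.

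Other markers of the naive state went both ways. Of 18 tested, 3 rose and 2 fell, with a median log2 difference of 0.14. KLF4, a Krüppel-like factor of the naive network, had 12.1, 13.5 and 14.7 RPKM in AKIT, against 2.24 and 1.81 RPKM in E8 (2.25 ± 0.13, limma adjusted p = 0.000415), and FGF4 rose by 2.05 ± 0.12. SOCS3, the feedback inhibitor of LIF and STAT3 signalling, fell to 11.3, 13.7 and 8.88 RPKM in AKIT, against 37.4 and 36.1 RPKM in E8 (-1.64 ± 0.17, limma adjusted p = 0.00195). The list held 8 further rows that did not reach the filter. Named after their values were seen, these include KLF17, at 0.0550 RPKM in AKIT replicate 2 and 0 in all other libraries, and DNMT3L, the catalytically inactive partner of the DNA methyltransferases, at 0.984, 0.429 and 0.272 RPKM in AKIT, against 0.0332 and 0.0722 RPKM in E8. With E8 replicate 1 or 2 left out 2 and 3 of these markers rose, and without AKIT replicate 2, 5 rose. Without either E8 library 1 of them fell, since the call of SOX15 was lost.

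Of 22 tested markers of the primed state, 12 fell and 1 rose, with a median log2 difference of -0.69. DUSP6, a phosphatase of ERK, fell to 4.25, 7.41 and 3.24 RPKM in AKIT, against 70.01 and 64.6 RPKM in E8 (-3.58 ± 0.26), and SFRP1, a secreted Wnt antagonist, fell by 3.20 on the log2 scale. DLK1, an imprinted Notch-family ligand gene, rose (2.35 ± 0.15). With E8 replicate 1 or 2 left out 7 and 6 of them fell. Among 11 tested transcripts linked to embryonic stem cells besides the DPPA genes, 5 rose and 0 fell, led by NODAL (2.53 ± 0.12) and GDF3 (2.32 ± 0.16), ligands of the TGF-beta family, and UTF1, a chromatin factor, which had 70.9, 44.5 and 61.1 RPKM in AKIT and 23.5 and 20.1 RPKM in E8 (1.37 ± 0.19, limma adjusted p = 0.00522). The call of UTF1 ended without E8 replicate 2. Of these transcripts 3 rose without E8 replicate 1, 2 without E8 replicate 2 and 3 without AKIT replicate 3, and 1 fell without AKIT replicate 2, ESRG, a long non-coding RNA of stem cells named after its values were seen. With all libraries ESRG had a limma adjusted p of 0.0523, and it also passed with array weights, at a minimum of 2 RPKM and with voom. These 3 lists share members with lists that were examined on these data before.

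**Figure D5:**
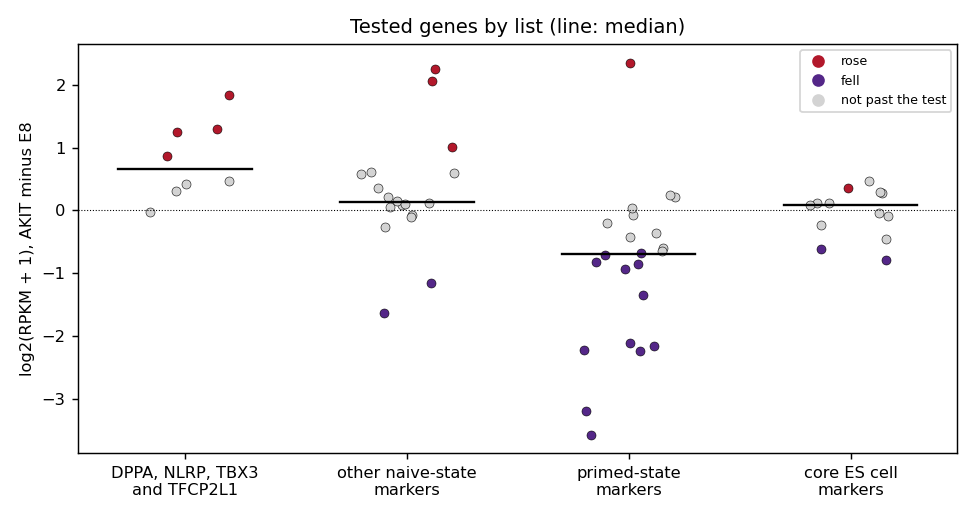
Log2 difference, AKIT minus E8, of log2(RPKM + 1) for each tested gene of 4 lists, with red for genes that rose, violet for genes that fell, grey for genes past no threshold and a line at each median. The medians were 0.67 for the DPPA, NLRP, TBX3 and TFCP2L1 genes, 0.14 for other naive-state markers, -0.69 for primed-state markers and 0.08 for markers of embryonic stem cells.

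Germ cells, trophoblast and endoderm also express some of the 9 genes, and their markers were read beside them. Of 10 tested markers of primordial germ cells 2 rose and 2 fell. UTF1 rose, SOX15 fell to 10.6 to 16.0 RPKM in AKIT, against 30.9 to 31.2 RPKM in E8, and TFAP2A fell to 0.206 to 0.738 RPKM in AKIT, against 2.27 to 2.61 RPKM in E8. The 13 markers summed to 199 to 225 RPKM in AKIT and 185 to 194 RPKM in E8, with 7 of them averaging at least 1 RPKM in AKIT and 9 in E8. SOX17 stayed at or below 0.110 RPKM, NANOS3 at or below 0.272 RPKM and DDX4 at or below 0.0348 RPKM. TFAP2C, shared with naive cells, had 17.3 to 30.9 RPKM in AKIT and 13.3 to 15.1 RPKM in E8. It did not pass (limma adjusted p = 0.108), but did so with array weights, under the replicate block and without AKIT replicate 2. PRDM1 had 0.510 to 0.828 RPKM in AKIT and 0.547 to 0.567 RPKM in E8, with overlap.

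Of 6 tested markers of trophoblast and amnion 2 fell, KRT7 (-1.28 ± 0.17) and GABRP (-1.07 ± 0.11), and 0 rose; the 13 summed to 9.90 to 21.2 RPKM in AKIT and 20.9 to 21.3 RPKM in E8. HAND1 and CGA of this list were above E8 in every AKIT library and did not pass. HAND1 had 6.31, 2.79 and 1.78 RPKM in AKIT replicates 1, 2 and 3, against 1.04 and 0.921 RPKM in E8 (limma adjusted p = 0.0776). It passed with array weights, without AKIT replicate 3, and under the replicate block, which gives the same difference as leaving out AKIT replicate 3. CGA had 1.99, 0.102 and 0.611 RPKM in AKIT and was listed at 0 in E8 (limma adjusted p = 0.176), and passed with array weights and without AKIT replicate 2. Of 5 tested endoderm markers FOXA2 rose (1.28 ± 0.20) and HHEX fell (-1.04 ± 0.20), and the 10 summed to 7.05 to 12.6 RPKM in AKIT and 6.37 to 7.38 RPKM in E8, with TTR at 0. Of 9 tested fibroblast and mesenchyme markers 4 fell, led by S100A4 (-1.56 ± 0.15), PDGFRB (-1.15 ± 0.19) and THY1 (-0.71 ± 0.15), and 0 rose. Their 11 rows summed to 212 to 276 RPKM in AKIT and 368 to 369.8 RPKM in E8, of which THY1 alone made 145 to 203 RPKM in AKIT and 273 to 275 RPKM in E8. The matrix genes COL3A1 and LUM lay the other way and did not pass. COL3A1 had 5.63, 2.15 and 0.141 RPKM in AKIT replicates 1, 2 and 3, against 0.0413 and 0 RPKM in E8 (limma adjusted p = 0.140). LUM had 5.81, 1.83 and 0.0244 RPKM in AKIT and was listed at 0 in E8 (limma adjusted p = 0.178). Both were high in AKIT replicates 1 and 2 and near 0 in AKIT replicate 3 and in E8. Both rose without AKIT replicate 3, where 2 markers of the list rose and 2 fell. Both also passed under the replicate block, which gives the same differences as leaving out AKIT replicate 3. COL3A1, LUM and CGA, at 0 to 0.0413 RPKM in E8, reached the filter through AKIT alone, so that only a rise could be found. TFAP2C, PRDM1, HAND1, CGA, COL3A1 and LUM were named after their values were seen. Of 6 tested neuroectoderm markers TUBB3 rose (0.61 ± 0.12) and SOX3 fell (-2.14 ± 0.11), and the 10 summed to 401 to 430.0 RPKM in AKIT and 372 to 398 RPKM in E8. Of the 13 markers of embryonic stem cells TERF1 rose (0.36 ± 0.10), and SOX2 (-0.79 ± 0.16) and PODXL (-0.62 ± 0.12) fell. The part of any other cell type in the rise of DPPA3, TBX3, NLRP7 and NLRP2 was not tested. Of the calls of germ cell, trophoblast, endoderm, fibroblast, neuroectoderm and stem cell markers named here with all libraries, only those of S100A4, SOX3 and GABRP held without either E8 library, and UTF1 held without E8 replicate 1. Under the replicate block the calls of SOX2, PODXL, TERF1, THY1, TUBB3 and HHEX were also lost. Without AKIT replicate 3 those of SOX2, THY1 and TERF1 ended. The call of TERF1 also ended without AKIT replicate 1, and those of TERF1 and PODXL without the filter.

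Because DPPA3 acts on DNA methylation in mouse, the enzymes that place and remove the mark were read as well. Of 7 tested, 1 rose and 1 fell. TET1, which oxidises methylcytosine, had 45.4, 49.98 and 39.8 RPKM in AKIT, against 17.6 and 18.1 RPKM in E8 (1.28 ± 0.12, limma adjusted p = 0.00157), and TET3 had 8.38 to 9.94 RPKM in AKIT, against 12.4 to 12.9 RPKM in E8 (-0.43 ± 0.11, limma adjusted p = 0.0355). TET3 did not pass without the filter, under the replicate block, or with either E8 library, AKIT replicate 1 or AKIT replicate 3 left out. UHRF1, a partner of DNMT1 that DPPA3 binds and displaces from chromatin in mouse, had 5.22 to 6.59 RPKM in AKIT and 4.11 to 5.30 RPKM in E8 and did not pass (limma adjusted p = 0.226).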

How the data were processed

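Per the labels' protocols, a column kit was used for the RNA and Illumina procedures for the libraries. The authors deposited RPKM values per gene symbol, with the builds hg19 and GRCh37 named in the submitters' processing notes; no aligner, counter, annotation or use of strand is named in the sources used here. Columns were matched to samples by title, and 5 of the 6 samples were used.

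Within a gene, each deposited RPKM value is what 1 read is worth times a whole number, which gave the depth of each library and the reads behind each value. The length of each gene was not known and was taken as the shortest that put all its libraries within 0.02 reads of whole numbers. Such a length was found for 100% of the 19892 genes with values above 0, and the reads summed to 99.0% of the depth. Because the length was free, this share is no check on the recovered reads, and genes near 0 fit too easily. At these depths 1 read of a 1 kb gene is 0.0430 to 0.0616 RPKM, and for a gene listed at 0 up to 3 reads are allowed by counting error alone.

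Media were compared on log2(RPKM + 1) in limma 3.58.1 (R 4.3.3), with a variance trend, two-sided, over the 14776 genes averaging 0.5 RPKM or more, with Benjamini-Hochberg adjustment at 0.05 and no covariate. Replicate libraries differed by more than sampling of reads (chi-square per gene 3.48 for the E8 pair and 18.0 to 34.4 for AKIT pairs, over genes with at least 30 reads in the pair), so each counted as 1 sample. GENCODE release 29 gave shared 50-base stretches.

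The 9 genes and the 21 further lists were chosen with earlier results of these data known. Each list contributed at most 3 named genes that passed, those that changed most, or at most 2 of the smallest p if none did. Genes named beyond this rule, such as TCF7L1, TBX2, UHRF1 and ZSCAN4, were chosen after their values were seen. For each tested gene of the 9, the 2 others with the smallest distance between centred log2 profiles (at least 5 RPKM in the higher group) were also named, except 1 that is not reported here.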

Additional observations from a re-analysis of the deposited data

How the results depend on the processing

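Over 14 alternatives the direction of each of the 8 tested genes held, and DPPA3, NLRP7 and TBX3 passed in every fit that tested them (limma adjusted p of 0.000406 to 0.0427, 0.000752 to 0.0451 and 0.000360 to 0.0348), and NLRP2 in each fit that tested it except those without an E8 library. Log2 differences were 1.65 to 3.45 for DPPA3, 1.25 to 2.56 for TBX3, 1.11 to 1.76 for NLRP7 and 0.75 to 1.49 for NLRP2, the highest with voom on recovered reads, an alternative chosen after seeing the data, whose scale has no pseudocount of 1 RPKM. At a minimum of 2 RPKM 5 of the 9 genes were tested and 2 rose, while 1151 of all 12120 genes tested in that fit rose. NLRP2 and TBX3, which rose with all libraries, were then not tested, and neither was DPPA5, which did not pass before. With array weights 5 of the 8 tested genes and 15.4% of all tested genes rose. With an AKIT library left out 4 to 6 of the 8 rose, beside 4.62% to 14.5% of all tested genes. Over all genes 2269 rose and 2740 fell with array weights, and with a library left out 142 to 2132 rose and 250 to 2619 fell, against 1214 and 1736 with all libraries. With a single E8 library, that library is assumed to vary like the AKIT libraries.

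Deviations of same-numbered libraries correlated at -0.00128 and 0.0254. Set against the other E8 library, each value only changed sign, because the deviations of the E8 libraries mirror each other. These values therefore cannot decide whether libraries of the same number were paired. With the replicate block 492 genes rose and 824 fell, with 1 residual degree of freedom per gene. AKIT replicate 3 has no E8 partner in that fit, so its differences equal those without AKIT replicate 3. The planned count model on recovered reads was not run, because the deposited values are RPKM and not counts. Voom on the same reads was fitted in its place, and the same limit holds for it. E8 replicate 3 was not analysed here.

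Reads limit the low members most: DPPA3 in E8, DPPA5 and ESRRB rest on 3 to 34 reads per library.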

Other observations

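Genes with profiles most like those of the 9 were found by distance over 5 libraries among 9938 candidates, where many genes differ between the media, so that close profiles are common. The nearest to TBX3 were the zinc finger genes ZNF836 (distance 0.0768) and ZNF90 (0.143), to NLRP7 UAP1L1 (0.179) and FRMPD4 (0.198), and to NLRP2 the metallothionein MT1X (0.0739) and the row MIR647 (0.122). Matches were less close for DPPA3 and for DPPA5. Nearest to DPPA3 were LOC100505817 (0.311) and CYP2B6 (0.313). The nearest to DPPA5 were CD70, a ligand of the TNF family (0.335), with 6.88, 2.59 and 6.66 RPKM in AKIT replicates 1, 2 and 3 and 3.29 and 3.17 RPKM in E8, and NQO1, a quinone reductase (0.352), with 31.6, 13.7 and 30.8 RPKM in AKIT and 18.4 and 19.3 RPKM in E8. In both, as in DPPA5, AKIT replicate 2 lay below the E8 libraries and the other AKIT libraries above them. The nearest to DPPA2 were ATP6V1C2 (0.0575) and TMED2 (0.0593), to TFCP2L1 UBL7 (0.0316) and RPS24 (0.0465), and to DPPA4 NMT1 (0.0194).

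Genes listed as lying near the DPPA and NLRP genes were read as well, and those near TBX3, TFCP2L1 and ESRRB were not. These lists need not hold consecutive neighbours. By the order in RefSeq (GRCh38.p14) MB21D1 and KIAA1524, named below, lie beyond the nearest protein-coding genes. As given in the report, 8.22% of all tested genes rose and 11.7% fell. Around NLRP7 and NLRP2, 5 genes were tested, 0 rose and EPS8L1 fell (-0.44 ± 0.12, limma adjusted p = 0.0437), a call that ended under 8 of the 14 alternatives, quantile and median-of-ratios scaling among them. NCR1, which precedes NLRP7, had 2.24, 6.23 and 3.00 RPKM in AKIT replicates 1, 2 and 3 and 1.92 and 2.51 RPKM in E8. GP6, which follows NLRP2, had 0.683, 4.42 and 1.75 RPKM in AKIT and 0.500 and 0.571 RPKM in E8. Both were highest in AKIT replicate 2, which NLRP7 and NLRP2 were not, and were named after their values were seen. Of 5 tested genes around DPPA3, GDF3 rose, with 165, 131 and 123 RPKM in AKIT and 24.2 and 30.1 RPKM in E8, and 4 did not pass. Of 4 around DPPA5, MB21D1, a sensor of cytosolic DNA, rose (1.01 ± 0.11, limma adjusted p = 0.00251), and of 3 around DPPA2 and DPPA4 0 passed, the smallest p being those of PVRL3 (limma adjusted p = 0.134) and KIAA1524 (0.149).

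In mouse, DPPA2 and DPPA4 act upstream of genes of the first wave of embryonic transcription. Of 11 rows of human genes of the eight-cell stage, 8 were listed at 0 in every library, among them LEUTX, DUXA and DUX4, which were named after their values were seen. ZSCAN4 stayed between 0.0383 and 0.172 RPKM in AKIT and between 0.101 and 0.110 RPKM in E8. CCNA1, the single gene tested, had 1.49 to 2.44 RPKM in AKIT and 0.713 to 1.07 RPKM in E8 and did not pass (log2 difference 0.57 ± 0.19, limma adjusted p = 0.0775). It passed with array weights and without AKIT replicate 2.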
